A study of Homo sapiens with 12 samples.

Results

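The effect of the mtAsn-2 LNA on gene expression was measured in MDA-MB-231, an established cell line from a human triple-negative breast cancer that has mesenchymal features. A locked nucleic acid (LNA) is a short, chemically stabilised oligonucleotide that pairs with a complementary RNA. The comparison used 6 of the 12 RNA-seq libraries of the series, chosen by their labels: 3 from cells given the mtAsn-2 LNA and 3 from cells given a control LNA. All cells received 20 nM of LNA with the lipid reagent Lipofectamine 2000 and were harvested on day 2. The other 6 libraries came from cells given mtAsn-1, another LNA against the mitochondrial asparagine tRNA, or mtLys, an LNA against the mitochondrial lysine tRNA, and are used where a difference from mtAsn-2 is tested. Whether the 3 libraries of each group represent separate cultures is not stated in the labels, and p-values therefore cover only library-to-library spread, which may be technical. The sources used here do not give the base sequences of the LNAs. All results come from 1 cell line, 1 dose and 1 time.

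Mitochondria carry their own set of tRNA genes, which read the messages for a small number of respiratory chain subunits. Asparagine is charged onto its mitochondrial tRNA by the synthetase NARS2, and lysine by KARS1, which also serves the cytosol. Loss of mitochondrial translation is known to reach nuclear genes through stress signals from the organelle.

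The sequences of both targeted tRNA genes are shown because they define what an LNA of each name would pair with. They are the sense strand of the mitochondrial genome in GENCODE v29 (build GRCh38), 5′ to 3′, with the anticodon in capitals. MT-TN, the asparagine tRNA gene, spans MT:5657-5729 on the minus strand and has 73 bases. MT-TK, the lysine tRNA gene, spans MT:8295-8364 on the plus strand and has 70.0 bases.
MT-TN: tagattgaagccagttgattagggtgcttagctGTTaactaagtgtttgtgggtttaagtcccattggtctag
MT-TK: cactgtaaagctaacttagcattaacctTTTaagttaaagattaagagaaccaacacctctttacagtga

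Few reads fell on the gene that mtAsn-2 is named for. MT-TN was hit by 3, 6 and 2 reads with control and by 1, 1 and 3 with mtAsn-2. Relative to the total counts the rate ratio was 0.361, with an exact 95% counting interval of 0.0984 to 1.13. The log2 CPM difference was -1.31. A two-sided exact permutation test cannot go below p = 0.1 with 3 libraries against 3, which is the value it gave, and the counting interval of the ratio includes 1. Levels are given as CPM, counts relative to the library size, scaled by edgeR's TMM factors except where stated. Mature tRNA is poorly captured by standard mRNA libraries. The interval covers counting error alone. MT-TK had 182, 181 and 111 reads with control and 313, 325 and 217 with mtAsn-2 (log2 fold change 0.44 ± 0.15 (SE), edgeR adjusted p = 0.0205). Its call was lost when control replicate 2 or 3 or mtAsn-2 replicate 1 or 2 was left out. Of 18 tested mitochondrial tRNA and rRNA genes, 5 (27.8%) were higher and 0 lower. The share called higher was near that of all tested genes (24.1% higher, 27% lower). Without control replicate 2 the count of higher genes was 1. The mitochondrial mRNAs were not analysed here. NARS2 stood at 14.5, 14.2 and 12.9 CPM with control and 14.4, 13.8 and 15.01 CPM with mtAsn-2 and did not pass (log2 fold change 0.046 ± 0.075 (SE), edgeR adjusted p = 0.643). Its cytosolic counterpart NARS1 fell (log2 fold change -0.32 ± 0.044 (SE), edgeR adjusted p = 7.55e-07), from 97.4, 104 and 98.4 CPM to 83.6, 78.9 and 78.3 CPM.

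Total counts were 27067977, 31112975 and 18826253 in the control libraries and 34832707, 30524246 and 31553676 in the mtAsn-2 libraries. Within groups, log2 CPM of any pair of libraries correlated across genes at 0.9925 to 0.9963. On the second principal component, with 27.4% of the variance, the mtAsn-2 libraries lay at -33.3 to -38.2 and all 9 others at 9.3 to 15.7. All 8 genes listed as high in MDA-MB-231, VIM and CD44 among them, were tested, with a summed level of 7031 to 7435 CPM in control and 6557 to 6800.3 with mtAsn-2. Of 5 genes listed as absent from the line, ESR1 and PGR, which this line lacks, had too few reads to test. The other 3, ERBB3, EPCAM and CDH1, were tested, and ERBB3 and EPCAM were called higher with mtAsn-2. The 5 genes summed to 11.9 to 12.8 CPM in control and 15.4 to 17.0 with mtAsn-2. Leukocyte markers summed to 537 to 542 CPM in control and 645 to 652 with mtAsn-2 over 10 genes, of which 5 could be tested. Of these, CD74 (0.41) and CD68 (0.29) were higher by log2 fold change and LAPTM5 (-0.12) lower, a call lost without mtAsn-2 replicate 1 (edgeR adjusted p = 0.0738) or 2 (0.0556), with no filter (0.158) and in the compared groups alone (0.0518). Of the others, which had too few reads to test, PTPRC had 7, 2 and 6 reads with control and 3, 1 and 3 with mtAsn-2, CD3E 1 read in all 6 libraries together, and ITGAM 2, 2 and 2 reads with control and 13, 13 and 7 with mtAsn-2. Fibroblast markers summed to 9.39 to 12.4 CPM in control and 7.03 to 8.22 with mtAsn-2, with DCN at 0 in all 6 libraries. Endothelial markers summed to 17.6 to 20.2 CPM and 13.5 to 16.2, and luminal breast markers to 357 to 368 CPM and 261 to 297. The luminal genes did not fall as a group. Of 6 tested, TFF1 and EPCAM were higher, KRT19 was lower and 3 did not pass, with a median log2 fold change of 0.04. The part of these shifts in the results was not tested.

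With mtAsn-2, 3862 of 16051 tested genes (24.1%) were higher than with control and 4337 (27%) were lower by edgeR's quasi-likelihood test, at a Benjamini-Hochberg adjusted p under 0.05. By at least 2-fold, 408 (2.54%) were higher and 555 (3.46%) lower, and 77 and 146 when genes below a mean log2 CPM of 2 were left out by a stricter filter. The CPM of the 3 and 3 libraries did not overlap for 9119 genes (56.8%). The median log2 fold change over all tested genes was -0.007. Counts of list members given below are read against these shares. For all genes called in either direction the median size of the change was 0.376 on the log2 scale. Standard errors (SE) of log2 fold changes were worked out from the F statistic of the same fit. Values are listed in the order of replicates 1 to 3.

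The rises were led by secreted signals for white blood cells. CSF3, which encodes the granulocyte growth factor G-CSF (chromosome 17, 40015440 to 40017813, plus strand, hg38), stood at 2.24, 3.05 and 2.78 CPM in the control libraries and 20.8, 19.8 and 16.9 CPM in the mtAsn-2 libraries (log2 fold change 2.83 ± 0.16 (SE), edgeR adjusted p = 2.06e-11). CSF2, which encodes the granulocyte and macrophage growth factor GM-CSF (chromosome 5, 132073789 to 132076170, plus strand), stood at 27.7, 23.5 and 20.6 CPM in the control libraries and 121, 127 and 116 CPM in the mtAsn-2 libraries (log2 fold change 2.33 ± 0.23 (SE), edgeR adjusted p = 2.66e-05). The rule for naming the largest changes required that the libraries of both groups not overlap, as in 56.8% of all tested genes. The separation in these 2 genes was therefore fixed by the rule. Of the 15 largest rises among protein-coding genes with a mean log2 CPM of at least 2, 5 were CSF3, CSF2 and the chemokines CXCL1, CXCL8 and CXCL2, and 3 more were IL6, TNFRSF9 and TRAF1 of the same signalling system. AREG, which encodes the epidermal growth factor receptor ligand amphiregulin (chromosome 4, 74445136 to 74455005, plus strand), was the most abundant of the 15, with 50.98, 49.3 and 52.8 CPM with control and 163, 176 and 170.1 CPM with mtAsn-2 (log2 fold change 1.74 ± 0.099 (SE), edgeR adjusted p = 2.58e-08). LCP1, an actin-bundling protein best known from leukocytes, had 5.42, 6.89 and 6.04 CPM with control and 22.5, 25.8 and 22.2 CPM with mtAsn-2 (log2 fold change 1.93 ± 0.094 (SE), edgeR adjusted p = 5.97e-16). EXTL2, an enzyme of heparan sulfate and chondroitin sulfate assembly, had 9.49, 10.2 and 11.1 CPM with control and 34.4, 35.4 and 32.1 CPM with mtAsn-2 (1.73 ± 0.068 on the log2 scale). Others were CACNA2D1 (1.66 ± 0.11), a calcium channel subunit gene, BTN3A1 (1.58 ± 0.074), a butyrophilin that takes part in the activation of gamma delta T cells, and DIPK1B (1.51 ± 0.097).

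BMF, which encodes a BH3-only protein that promotes apoptosis, fell the most (chromosome 15, 40087890 to 40108879, minus strand). It stood at 59.3, 58.2 and 53.03 CPM in the control libraries and 4.13, 4.25 and 5.27 CPM in the mtAsn-2 libraries (log2 fold change -3.65 ± 0.10 (SE), edgeR adjusted p = 1.91e-18). The water channel gene AQP1 (chromosome 7, 30911694 to 30925517, plus strand) went from 8.48, 9.68 and 8.77 CPM to 1.90, 1.84 and 1.61 CPM (log2 fold change -2.33 ± 0.12 (SE), edgeR adjusted p = 1.63e-15), and AQP3, a channel for water and glycerol (chromosome 9, 33441154 to 33447596, minus strand), from 26.9, 25.8 and 23.9 CPM to 6.69, 5.65 and 7.67 CPM (log2 fold change -1.94 ± 0.11 (SE), edgeR adjusted p = 9.41e-12). The lack of overlap between the groups in these 3 genes was required by the same rule. S100P, a calcium-binding protein gene, fell from 19.6, 17.9 and 16.7 CPM to 3.83, 4.56 and 5.24 CPM (-2.001 ± 0.10), and INHBB, an activin and inhibin subunit gene, from 40.2, 39.5 and 33.1 CPM to 9.14, 8.47 and 11.7 CPM (-1.95 ± 0.12). The mitochondrial acetyl-CoA synthetase gene ACSS1 stood at 11.7, 13.1 and 12.4 CPM with control and 3.30, 3.06 and 3.26 CPM with mtAsn-2 (-1.95 ± 0.10). GAS6, which encodes the ligand of the TAM receptor kinases that include AXL, was abundant and fell from 498, 475 and 457 CPM to 134, 134 and 142 CPM (log2 fold change -1.80 ± 0.042 (SE), edgeR adjusted p = 7.71e-23). PTPRF, a receptor tyrosine phosphatase gene, fell from 321, 288 and 280.2 CPM to 89.4, 86.8 and 90.7 CPM (log2 fold change -1.74 ± 0.055 (SE), edgeR adjusted p = 3.11e-17). Further falls among the largest were ADM5 (-2.06 ± 0.13), PCMTD1 (-1.98 ± 0.099), the cyclophilin gene PPIC (-1.86 ± 0.083), the heparanase gene HPSE (-1.85 ± 0.069), the coagulation factor XIII subunit gene F13A1 (-1.82 ± 0.14) and OFD1 (-1.78 ± 0.082), a gene of the centriole and cilium base. Some genes named here and below overlap an exon of another gene on the opposite strand, and without stated strand information their reads cannot be told apart from that gene's. They are ACADVL, ACSL4, BCL2L1, BOK, BSG, CARS2, CCND2, CD68, CD74, CDKN1A, CDKN1B, CEBPB, CFLAR, COL5A1, CXCL16, DELE1, DICER1, DIPK1B, EGFR, EIF2AK1, EIF2AK2, ERBB2, FAS, FOSL2, FTH1, GAS6, GLUD1, HIF1A, HPGD, HSPA9, IDH2, IL12A, IL24, IL6, IL6R, IL7, KRT18, KRT8, LIF, LOX, MAT2A, MTHFD2, NDUFB6, OFD1, P4HA2, PDHA1, PFKM, POLG, POLR1B, PPIC, RPL27A, RSAD2, S100A4, SHMT2, SLC16A3, SLC7A11, SREBF2, TGFB2, TNFAIP3, TP53INP1, TRAP1 and XPO5.

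**Figure D1:**
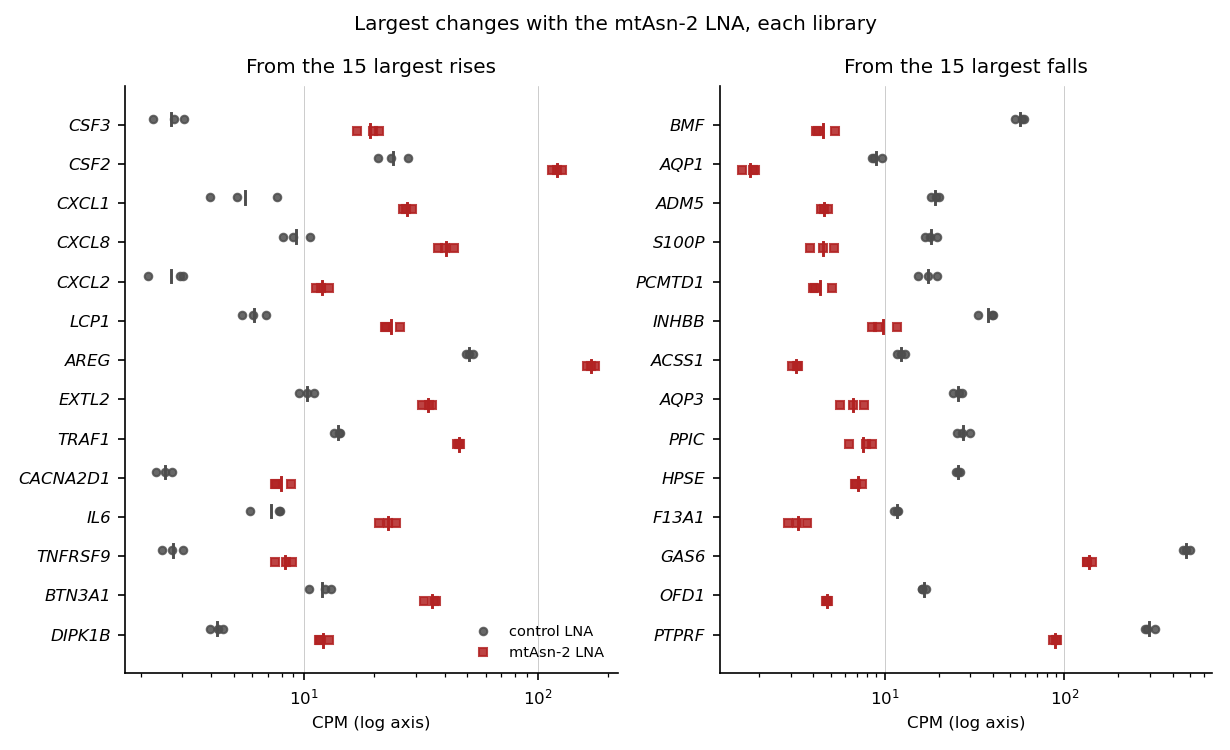
CPM on a log axis of genes named from the 15 largest rises and the 15 largest falls with the mtAsn-2 LNA against the control LNA. Each symbol is 1 library and each short line the mean of 3. The symbols of both groups are apart in all genes shown, which the rule for naming them required, and BMF shows the widest gap among the falls.

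The neutrophil chemokines, small secreted proteins that draw neutrophils through the receptors CXCR1 and CXCR2, rose together: 4 of 4 tested members were higher (all genes, 24.1%), with a median log2 fold change of 2.12. CXCL1 stood at 7.66, 5.17 and 3.96 CPM with control and 28.99, 27.4 and 26.6 CPM with mtAsn-2 (log2 fold change 2.28 ± 0.15 (SE), edgeR adjusted p = 1.27e-08). CXCL8, which encodes interleukin 8, stood at 10.6, 8.97 and 8.13 CPM with control and 40.3, 43.7 and 37.3 CPM with mtAsn-2 (log2 fold change 2.12 ± 0.14 (SE), edgeR adjusted p = 9.47e-08). CXCL2 had 3.03, 2.92 and 2.14 CPM with control and 11.8, 12.8 and 11.2 CPM with mtAsn-2 (2.12 ± 0.14) and CXCL3 1.79, 1.36 and 1.02 CPM with control and 3.85, 3.87 and 3.29 CPM with mtAsn-2 (1.36 ± 0.19). The control libraries were scattered more widely than the mtAsn-2 libraries for CXCL1. The groups did not overlap in any of the 4 genes (all genes, 56.8%), which the naming rule required of CXCL1, CXCL2 and CXCL8. CXCL1, CXCL2 and CXCL3 are close copies of each other that can share reads. Of the other chemokines, CCL20, which draws cells that carry CCR6, was near absent in control (0.112, 0 and 0.0535 CPM) and stood at 1.38, 1.22 and 0.731 CPM with mtAsn-2 (edgeR adjusted p = 2.1e-08). CXCL10 (1.66 ± 0.39) and CXCL11 (1.99 ± 0.47), which bind CXCR3 and are known as interferon-induced, were higher as well. CX3CL1 (0.41 ± 0.28, adjusted p = 0.227 by edgeR) and CXCL16 (-0.15 ± 0.16, adjusted p = 0.451 by edgeR) did not pass. CCL26 was lower (-0.81 ± 0.19).

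Of 3 colony-stimulating factor genes, CSF2 and CSF3 rose as described, and CSF1, the macrophage growth factor gene, had 720.3, 569 and 579 CPM with control and 533, 483 and 600.0 CPM with mtAsn-2 and did not pass (-0.21 ± 0.12). Among interleukins and their relatives, 8 of 13 tested genes were higher and 1 lower. IL6, a cytokine of the acute phase response, stood at 7.81, 7.86 and 5.88 CPM with control and 24.7, 22.8 and 20.9 CPM with mtAsn-2 (log2 fold change 1.64 ± 0.11 (SE), edgeR adjusted p = 5.34e-12). IL1A stood at 0.598, 0.65 and 0.588 CPM with control and 2.23, 2.78 and 2.65 CPM with mtAsn-2 (log2 fold change 2.04 ± 0.22 (SE), edgeR adjusted p = 5.62e-09) and IL1B at 0.859, 0.78 and 0.855 CPM with control and 2.67, 2.999 and 2.77 CPM with mtAsn-2 (log2 fold change 1.76 ± 0.21 (SE), edgeR adjusted p = 6.87e-08), and both encode ligands of the interleukin 1 receptor. IL32 had 2.17, 1.69 and 1.23 CPM with control and 5.23, 5.09 and 5.27 CPM with mtAsn-2 (1.58 ± 0.15). The interleukin 12 family subunit genes IL12A (1.27 ± 0.16) and EBI3 (1.29 ± 0.25) rose, as did LIF (0.55 ± 0.047). IL18 fell (-0.34 ± 0.067), while IL11 (-0.28 ± 0.17), IL24 (0.56 ± 0.33) and IL7 (0.37 ± 0.24) did not pass. Of the receptors, the interleukin 7 receptor gene IL7R rose (0.83 ± 0.089), IL1R1 by 0.31, and IL6R, the ligand-binding chain for IL6, fell (-1.27 ± 0.15).

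NF-kB is a family of dimeric transcription factors that sit in the cytoplasm bound to IkB inhibitors. On a stimulus the IkB kinase complex marks the inhibitors for destruction, and many chemokine and cytokine genes are known NF-kB targets, as are the genes of several of its own subunits and inhibitors. With mtAsn-2 all 5 subunit genes were higher. NFKB2 stood at 184, 173 and 160.1 CPM with control and 342, 328 and 334 CPM with mtAsn-2 (log2 fold change 0.95 ± 0.046 (SE), edgeR adjusted p = 4.21e-16) and RELB, its usual partner, at 36.7, 36.9 and 30.5 CPM with control and 70.00, 66.4 and 66.2 CPM with mtAsn-2 (log2 fold change 0.95 ± 0.059 (SE), edgeR adjusted p = 1.09e-13). NFKB1 (0.45 ± 0.050), REL (0.28 ± 0.076) and RELA (0.21 ± 0.039) rose by less. Of 9 tested inhibitor and feedback genes, 6 were higher and 0 lower. TNIP2, which binds the deubiquitinase A20, had 41.5, 38.99 and 42.2 CPM with control and 88.3, 82.4 and 94.4 CPM with mtAsn-2 (log2 fold change 1.12 ± 0.053 (SE), edgeR adjusted p = 4.06e-16). NFKBIA, the gene of the main IkB inhibitor, had 153, 133 and 133 CPM with control and 223, 221 and 242 CPM with mtAsn-2 (log2 fold change 0.71 ± 0.056 (SE), edgeR adjusted p = 5.17e-10), NFKBIZ rose by 0.85 ± 0.093 on the log2 scale, and TNFAIP3, which encodes A20 itself, by 0.40 ± 0.080. The kinase and adaptor genes were mixed, with 10 of 20 higher and 4 lower, a count that was 2 without control replicate 1, mtAsn-2 replicate 2 or mtAsn-2 replicate 3. TRAF1, an adaptor of TNF receptors, stood at 14.1, 13.5 and 14.3 CPM with control and 46.00, 46.5 and 45.1 CPM with mtAsn-2 (log2 fold change 1.72 ± 0.075 (SE), edgeR adjusted p = 1.48e-16), and BIRC3, a ubiquitin ligase of the same complexes, at 60.1, 57.5 and 52.97 CPM with control and 137, 124 and 121 CPM with mtAsn-2 (log2 fold change 1.16 ± 0.074 (SE), edgeR adjusted p = 5.73e-10). Lower were MYD88 (-0.54 ± 0.055), the adaptor of Toll-like and interleukin 1 receptors, and TRAF6 (-0.33 ± 0.066). IKBKG, the regulatory subunit of the kinase, did not pass (-0.060 ± 0.047).

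Promoters of 4 of these genes are printed because the members moved together and because matches to a kappaB-type motif, the class of sequence NF-kB binds, lie close to their start sites. Each run covers 250 bases before to 50 after the start site in RefSeq (build GRCh38.p14), 5′ to 3′ on the strand of the gene, with motif matches in capitals. CXCL1 is chr4:73869143-73869442 (plus), CXCL2 chr4:74099146-74099445 (minus), CXCL8 chr4:73740319-73740618 (plus) and IL6 chr7:22726950-22727249 (plus).
CXCL1: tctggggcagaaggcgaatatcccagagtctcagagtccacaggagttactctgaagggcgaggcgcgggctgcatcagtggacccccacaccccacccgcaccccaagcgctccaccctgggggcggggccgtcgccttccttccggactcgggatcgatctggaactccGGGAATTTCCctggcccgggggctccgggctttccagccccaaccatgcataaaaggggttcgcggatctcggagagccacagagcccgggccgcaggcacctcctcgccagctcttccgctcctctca
CXCL2: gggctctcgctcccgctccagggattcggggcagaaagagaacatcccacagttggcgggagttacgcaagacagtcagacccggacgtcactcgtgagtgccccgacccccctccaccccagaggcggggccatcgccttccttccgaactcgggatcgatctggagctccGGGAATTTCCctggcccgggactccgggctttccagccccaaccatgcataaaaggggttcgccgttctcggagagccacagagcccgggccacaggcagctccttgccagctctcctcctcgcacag
CXCL8: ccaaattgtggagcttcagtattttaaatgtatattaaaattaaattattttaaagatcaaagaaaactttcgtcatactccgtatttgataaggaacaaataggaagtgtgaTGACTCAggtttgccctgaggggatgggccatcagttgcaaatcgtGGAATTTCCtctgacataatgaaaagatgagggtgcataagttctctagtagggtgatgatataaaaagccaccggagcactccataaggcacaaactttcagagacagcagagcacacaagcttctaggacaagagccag
IL6: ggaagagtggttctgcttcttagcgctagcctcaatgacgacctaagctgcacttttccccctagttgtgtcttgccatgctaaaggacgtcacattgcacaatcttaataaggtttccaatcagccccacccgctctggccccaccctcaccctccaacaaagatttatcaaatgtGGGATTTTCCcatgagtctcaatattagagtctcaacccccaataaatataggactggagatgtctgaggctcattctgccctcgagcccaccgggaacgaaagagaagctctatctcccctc

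The capitals in CXCL1 and CXCL2 are a match to GGG and TTTCC parted by any 2 bases, which holds a match to GGAATTTCC 1 base further in, and start at -79 and -78 relative to the start site. IL6 has a match of the first kind at -73. CXCL8 matches GGAATTTCC at -91, and its other capitals are a match to TGANTCA, the AP-1 type, at -137. Both kappaB-type motifs were searched on both strands in 300-base promoters. Of 40 promoters of genes from the chemokine, cytokine, NF-kB and TNF lists that were higher, 17 (42.5%) held at least 1 of these motifs. Among promoters of list members that were not higher, 2 of 32 (6.25%) did. The share was 2.40% of 11195 promoters of tested genes and 2.23% of all 27305 promoters in the table. The lists were chosen partly as known NF-kB targets, so these shares describe the lists and are not independent of that choice. Among all genes higher by at least 2-fold, 7.11% of 253 promoters held a match, and among those lower by at least 2-fold, 1.85% of 324. A match is a description of the letters and does not show that a protein bound there.

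The TNF ligands and receptors moved both ways. TNFSF15, an endothelial and T-cell cytokine gene, had the largest log2 fold change, from low levels of 1.20, 0.845 and 0.909 CPM to 8.84, 8.31 and 12.8 CPM (log2 fold change 3.33 ± 0.47 (SE), edgeR adjusted p = 0.000289). TNFSF10, which encodes the death ligand TRAIL, rose (0.43 ± 0.077). Of 14 receptors, 4 were higher: TNFRSF9 (3.03, 2.47 and 2.73 CPM in control and 8.34, 8.90 and 7.49 CPM with mtAsn-2), TNFRSF10A (0.90 ± 0.051), FAS (0.70 ± 0.16) and CD40 (0.52 ± 0.063). Among the 4 lower ones (2 without control replicate 1) were the TRAIL decoy receptor gene TNFRSF10D (-1.06 ± 0.048) and TNFRSF1A (-0.51 ± 0.042), which encodes the main TNF receptor. PTGS2, the inducible cyclooxygenase gene, stood at 1.87, 1.92 and 1.71 CPM with control and 6.69, 7.72 and 6.03 CPM with mtAsn-2 (log2 fold change 1.88 ± 0.15 (SE), edgeR adjusted p = 4.23e-11), while the constitutive PTGS1 fell from 3.10, 2.70 and 2.08 CPM to 0.963, 0.781 and 1.19 CPM (log2 fold change -1.45 ± 0.19 (SE), edgeR adjusted p = 3.1e-07). The prostaglandin E synthase gene PTGES (0.74 ± 0.047) and the phospholipase gene PLA2G4A (1.04 ± 0.11), which frees arachidonic acid, rose, and HPGD, which breaks prostaglandins down, fell (-0.99 ± 0.16). CD44, the hyaluronan receptor gene, rose by 0.33 ± 0.050, and the adhesion receptor genes ALCAM (-0.61 ± 0.039) and L1CAM (-0.48 ± 0.059) fell.

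**Figure D2:**
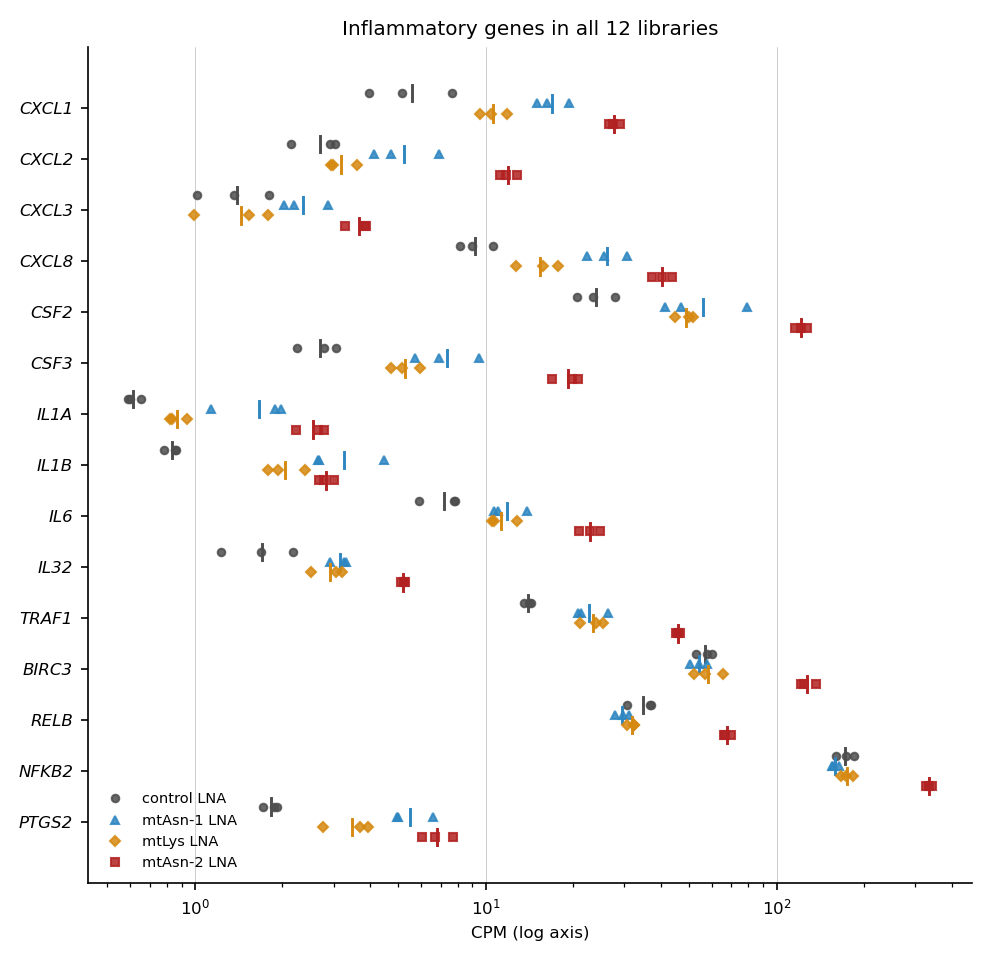
CPM on a log axis of 15 inflammatory genes in all 12 libraries, by LNA. Each symbol is 1 library and each short line a mean of 3. The mtAsn-2 libraries are the highest group for all genes shown except IL1B, where the mtAsn-1 mean is higher.

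Ligands of the epidermal growth factor receptor family rose in 5 of 7 cases. AREG is given above. HBEGF stood at 68.6, 64.5 and 65.7 CPM with control and 111, 115 and 107 CPM with mtAsn-2 (log2 fold change 0.74 ± 0.050 (SE), edgeR adjusted p = 8.24e-13), NRG1 rose by 0.85 ± 0.048, EREG by 0.46 ± 0.044 and BTC by 0.69 ± 0.14, whereas EGF fell (-0.80 ± 0.10). The receptor gene ERBB2 rose (0.39 ± 0.040) and EGFR did not pass (-0.065 ± 0.037). Feedback genes of the MAP kinase pathway, phosphatases and Sprouty relatives that are known to be induced by and to dampen growth factor signals, were lower in 9 of 17 tested cases (all genes, 27%). They included ETV5 (-0.70 ± 0.044), SPRED1 (-0.61 ± 0.047) and DUSP4 (-0.48 ± 0.045). DUSP2 rose (0.784, 1.04 and 0.855 CPM with control and 1.93, 2.09 and 1.43 CPM with mtAsn-2, 1.01 ± 0.21). Of 25 immediate early factor genes, 6 were higher and 9 lower. EGR1 stood at 20.9, 24.4 and 22.5 CPM with control and 53.2, 50.9 and 47.1 CPM with mtAsn-2 (log2 fold change 1.16 ± 0.17 (SE), edgeR adjusted p = 0.000435), and MYC at 103, 96.7 and 96.9 CPM with control and 140.0, 139 and 139 CPM with mtAsn-2 (log2 fold change 0.49 ± 0.043 (SE), edgeR adjusted p = 1.38e-10). NR4A3 fell from 2.91, 4.19 and 2.51 CPM to 1.73, 1.25 and 1.34 CPM (log2 fold change -1.18 ± 0.20 (SE), edgeR adjusted p = 1.12e-05), FOSL2 by -0.54 ± 0.036 and KLF4 by -0.51 ± 0.056.

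NRF2, encoded by NFE2L2, is the transcription factor that drives antioxidant and detoxification genes when its inhibitor KEAP1 is modified. Its target genes were mostly lower: of 47 tested regulators and targets, 29 were lower and 9 higher, with a median of -0.32. NFE2L2 (-0.035 ± 0.045) and KEAP1 (0.033 ± 0.053) themselves did not pass, and BACH1, a repressor of the same sites, fell (log2 fold change -0.52 ± 0.059 (SE), edgeR adjusted p = 1.92e-08). Of the reductases, 8 of 9 fell, or 5 without control replicate 1 or mtAsn-2 replicate 2. NQO1, the quinone reductase gene, went from 429, 437 and 454 CPM to 162, 147 and 161 CPM (log2 fold change -1.49 ± 0.047 (SE), edgeR adjusted p = 1.2e-19), and AKR1B10 from 2.61, 2.86 and 3.10 CPM to 0.661, 0.406 and 0.67 CPM (log2 fold change -2.28 ± 0.20 (SE), edgeR adjusted p = 1.92e-10). AKR1C1 (-0.58 ± 0.15) and AKR1C3 (-0.64 ± 0.069) fell, and as close copies they can share reads. TXNRD1, thioredoxin reductase, fell from 683, 749 and 695 CPM to 403, 397 and 389.8 CPM (log2 fold change -0.84 ± 0.041 (SE), edgeR adjusted p = 8.33e-16), and thioredoxin itself, TXN, by -0.60 ± 0.041.

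Glutathione genes divided. SLC7A11, the cystine importer gene (-0.87 ± 0.047), GSR, glutathione reductase (-0.83 ± 0.053), and GGT1 (-1.01 ± 0.13) fell. GCLC, the catalytic subunit of the enzyme that starts glutathione synthesis, did not pass (0.046 ± 0.063). The 6 NADPH-producing and pentose phosphate enzymes had 5 lower members, with ME1, malic enzyme, at 35.3, 33.5 and 36.4 CPM with control and 18.1, 18.3 and 18.9 CPM with mtAsn-2 (log2 fold change -0.92 ± 0.059 (SE), edgeR adjusted p = 2.14e-13). PGD did not pass (0.049 ± 0.038). Of 9 tested heme and iron genes, 6 were higher and 3 lower (all genes, 24.1% and 27%), at a median of 0.20. The ferritin chains FTL (-0.73 ± 0.040) and FTH1 (-0.32 ± 0.088), which store iron, and the heme oxygenase gene HMOX1 (40.1, 37.6 and 37.2 CPM with control and 25.3, 25.4 and 26.2 CPM with mtAsn-2, -0.58 ± 0.061) fell. SLC40A1, the iron exporter ferroportin, rose from 1.72, 2.27 and 1.66 CPM to 3.91, 3.37 and 3.20 CPM (log2 fold change 0.87 ± 0.17 (SE), edgeR adjusted p = 6.73e-05). The ferritin genes have many processed copies in the genome that can share reads. The antioxidant-type motif TGACNNNGC was found in 3 of 21 promoters of lower list members (14.3%) and in 15.3% of promoters of tested genes.

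Genes of glucose uptake, genes that restrain uptake, and genes of glycolysis and glycogen were mostly lower. Of 40 tested members 27 were lower and 4 higher, with a median of -0.27. TXNIP, an arrestin relative that removes glucose transporters from the surface and is known to be induced by glucose, fell from 197, 221 and 214 CPM to 76.97, 80.5 and 73.02 CPM (log2 fold change -1.45 ± 0.095 (SE), edgeR adjusted p = 1.24e-07). Its relatives ARRDC4 (3.44, 4.48 and 3.69 CPM and 1.65, 2.09 and 1.22 CPM, -1.24 ± 0.17) and ARRDC3 (-1.10 ± 0.086) fell with it. The transporter genes SLC2A1 (-0.31 ± 0.036) and SLC2A3 (169, 158 and 155 CPM with control and 87.2, 87.2 and 85.8 CPM with mtAsn-2, -0.89 ± 0.058) were lower, and SLC2A3 has a near-identical copy, SLC2A14, with which it can share reads. Of 17 tested glycolytic enzymes, 12 were lower and 2 higher. The higher count was 1 without control replicate 2 or 3 or mtAsn-2 replicate 2 or 3. PKM, pyruvate kinase, went from 4818, 4945 and 5051 CPM to 3191, 3051 and 3242 CPM (log2 fold change -0.64 ± 0.038 (SE), edgeR adjusted p = 3.38e-14), and ALDOA, aldolase, from 51.1, 45.6 and 41.9 CPM to 26.5, 28.6 and 29.6 CPM (log2 fold change -0.72 ± 0.072 (SE), edgeR adjusted p = 1.3e-08). PGK1 (-0.31 ± 0.045), ENO1 (-0.29 ± 0.037), HK2 (-0.29 ± 0.049) and GAPDH (-0.24 ± 0.046) fell by less. PFKM, the muscle-type phosphofructokinase gene, rose (117, 110.4 and 114 CPM with control and 168, 163 and 162 CPM with mtAsn-2, 0.53 ± 0.041), and LDHB did not pass (0.065 ± 0.038). The lactate exporter gene SLC16A3 (-0.31 ± 0.046) and its chaperone BSG (-0.43 ± 0.043) fell. LDHA had too few reads to test and is listed with a copy on an alternate sequence of the build.

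The hypoxia response uses HIF1A and EPAS1, which pair with ARNT and are held down by EGLN prolyl hydroxylases. HIF1A (-0.26 ± 0.042), EPAS1 (-0.20 ± 0.047) and ARNT (-0.60 ± 0.050) were all lower, and HIF1AN, an asparagine hydroxylase that inhibits HIF1A, was higher (0.49 ± 0.041). EGLN3, itself a known hypoxia target, fell from 32.5, 33.8 and 33.03 CPM to 13.5, 13.1 and 13.9 CPM (log2 fold change -1.29 ± 0.067 (SE), edgeR adjusted p = 3.2e-15). Of 32 tested members, 17 were lower and 3 higher. LOX, which cross-links collagen, went from 47.4, 41.1 and 48.2 CPM to 20.4, 19.5 and 22.1 CPM (log2 fold change -1.14 ± 0.070 (SE), edgeR adjusted p = 4.17e-13) and NDRG1 from 877, 744 and 816 CPM to 406, 413 and 507 CPM (log2 fold change -0.88 ± 0.12 (SE), edgeR adjusted p = 0.000229). Several well-known targets did not pass, among them CA9 (0.15 ± 0.20), P4HA2 (-0.026 ± 0.047) and PLOD2 (-0.025 ± 0.041), and ANGPTL4 rose (0.61 ± 0.069). The core hypoxia motif ACGTG was present in 17 of 40 promoters of lower hypoxia and glucose members (42.5%) and in 26.2% of 11195 promoters of tested genes. These lists hold known hypoxia targets, so the shares describe the lists and are not independent of that choice. The share among list members that were not lower was not worked out.

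Sterol synthesis genes fell along the pathway, 16 of 20 tested with 0 higher (1 without control replicate 2 or mtAsn-2 replicate 3), at a median of -0.31. MSMO1, sterol methyl oxidase, stood at 108, 111 and 110.1 CPM with control and 59.05, 55.8 and 60.5 CPM with mtAsn-2 (log2 fold change -0.91 ± 0.050 (SE), edgeR adjusted p = 8.18e-15), HSD17B7 at 21.3, 21.3 and 22.1 CPM with control and 11.9, 11.3 and 12.2 CPM with mtAsn-2 (-0.87 ± 0.071) and HMGCS1, which makes the precursor of mevalonate, at 78.9, 93.6 and 87.9 CPM with control and 59.1, 56.5 and 54.2 CPM with mtAsn-2 (-0.62 ± 0.054). SREBF2, the transcription factor of the pathway (-0.62 ± 0.049), and INSIG1, which retains it (-0.64 ± 0.038), fell. NPC1L1 was low throughout, with 1.57, 1.10 and 0.802 CPM with control and 0.0551, 0.156 and 0.244 CPM with mtAsn-2 (-2.96 ± 0.36). Of 15 fatty acid synthesis genes, 7 were lower and 1 higher. The desaturase genes SCD (-0.53 ± 0.044) and SCD5 (55.7, 52.5 and 51.9 CPM with control and 21.2, 20.2 and 23.8 CPM with mtAsn-2, -1.30 ± 0.058) and ACSL4 (-0.65 ± 0.044), which activates polyunsaturated fatty acids, were lower, and FASN (-0.061 ± 0.065) and ACLY (-0.052 ± 0.039) did not pass. Fatty acid oxidation was not uniform, with 7 higher and 4 lower of 18. ACADVL, very long chain acyl-CoA dehydrogenase, rose (0.63 ± 0.050), and ACADM, which takes medium chains, fell (-0.38 ± 0.048).

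**Figure D3:**
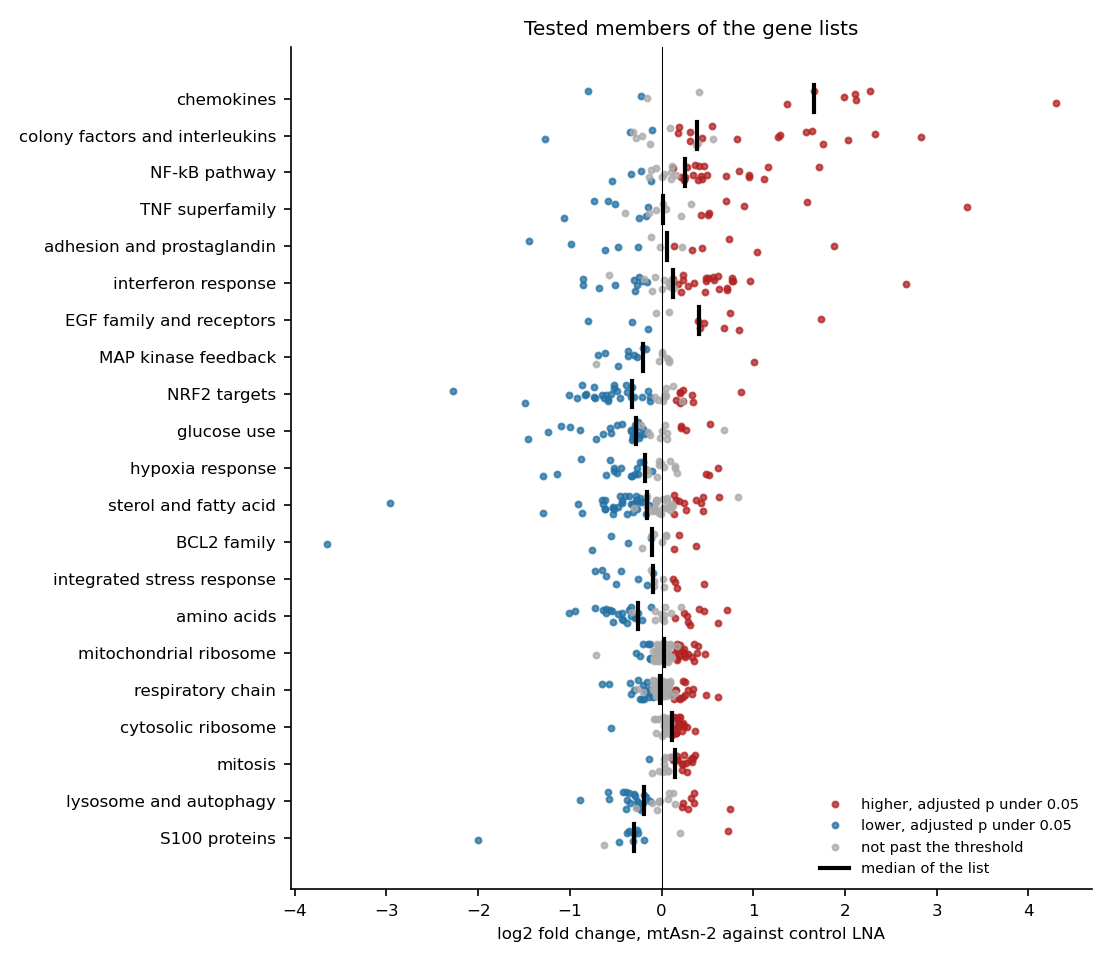
Log2 fold change with mtAsn-2 against control of the tested members of 21 gene lists. Each point is 1 gene, red or blue where the adjusted p was under 0.05 and grey where not, and the black line is the median of the list. Of 11 chemokines 7 are called higher and 2 lower, and NRF2, glucose and S100 members lie mostly to the left of 0.

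In the BCL2 family, whose BH3-only members trigger and whose anti-apoptotic members block the permeabilisation of mitochondria, BMF stood apart. BCL2L11, which encodes BIM (21.6, 22.5 and 20.6 CPM with control and 12.9, 12.9 and 12.6 CPM with mtAsn-2, -0.75 ± 0.068), and BOK (-0.55 ± 0.059) fell too. BBC3, which encodes PUMA, was lower (log2 fold change -0.37 ± 0.13 (SE), edgeR adjusted p = 0.0241), but not without control replicate 1 (adjusted p = 0.102) or mtAsn-2 replicate 1 (0.0896), 2 (0.0581) or 3 (0.0535). PMAIP1 (0.053 ± 0.058), BID (0.008 ± 0.044) and BIK (-0.22 ± 0.20) did not pass. BCL2L2 rose (0.20 ± 0.057), and BCL2 was higher (0.37 ± 0.11), a call lost after thinning to the smallest total (edgeR adjusted p = 0.0564). BCL2L1, which encodes BCL-XL, was slightly lower (log2 fold change -0.12 ± 0.039 (SE), edgeR adjusted p = 0.0158), a call lost without mtAsn-2 replicate 1 (0.0914) or 2 (0.135), with no filter (0.118) and in the compared groups alone (0.0505). MCL1 did not pass (log2 fold change -0.085 ± 0.043 (SE), edgeR adjusted p = 0.103), except without control replicate 3 (0.0415). Among the caspases and their inhibitors, CASP4 (0.64 ± 0.059), an inflammatory caspase gene, and CASP8 (0.36 ± 0.058) rose, and CFLAR (-0.41 ± 0.055) and XIAP (-0.44 ± 0.046), which restrain caspases, fell. MDA-MB-231 carries mutant p53. The listed p53 target genes moved in both directions, with BTG2 higher (0.56, 0.195 and 0.748 CPM with control and 1.60, 0.968 and 1.07 CPM with mtAsn-2, 1.39 ± 0.34) and TP53INP1 (-1.19 ± 0.067), GDF15 (38.3, 32.1 and 25.4 CPM with control and 15.4, 15.8 and 13.8 CPM with mtAsn-2, -1.10 ± 0.11) and CDKN1A (-0.35 ± 0.047) lower.

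The integrated stress response is a known route from mitochondrial damage to the nucleus: OMA1 cleaves DELE1, the kinase EIF2AK1 is activated, and ATF4 is translated and turns on amino acid genes. At the RNA level ATF4 was slightly lower (549.9, 573 and 550.4 CPM in control, 522, 515 and 535 CPM with mtAsn-2, log2 fold change -0.091 ± 0.036 (SE), edgeR adjusted p = 0.0347). Leaving out control replicate 2 ended this call (adjusted p = 0.153), as did leaving out mtAsn-2 replicate 1 (0.109) or 2 (0.169). It was also lost with RLE factors (0.0532), the replicate block (0.0572), the compared groups alone (0.118) and no filter (0.322). OMA1 fell (-0.61 ± 0.076), EIF2AK1 fell (-0.16 ± 0.039) and DELE1 rose (0.46 ± 0.049). ATF3 (14.6, 19.7 and 13.9 CPM with control and 11.7, 10.9 and 11.96 CPM with mtAsn-2, -0.50 ± 0.11), NUPR1 (-0.72 ± 0.10) and TRIB3 (-0.45 ± 0.065) were lower. CHAC1 (-0.077 ± 0.072) and CEBPB (0.017 ± 0.080) did not pass. ASNS, asparagine synthetase, a known ATF4 target, fell from 3.14, 2.83 and 2.89 CPM to 1.71, 2.16 and 1.83 CPM (log2 fold change -0.64 ± 0.16 (SE), edgeR adjusted p = 0.00115). The serine synthesis genes PHGDH (-0.42 ± 0.070) and PSAT1 (-0.28 ± 0.056) fell. The mitochondrial folate enzyme genes MTHFD2 (61.4, 67.98 and 61.5 CPM with control and 93.3, 88.3 and 81.03 CPM with mtAsn-2, log2 fold change 0.46 ± 0.051 (SE), edgeR adjusted p = 1.54e-08) and SHMT2 (0.25 ± 0.039) rose. MAT2A, which makes S-adenosylmethionine, went from 427, 469 and 416 CPM to 218, 218 and 216 CPM (log2 fold change -1.01 ± 0.045 (SE), edgeR adjusted p = 1.17e-16). Amino acid transporter genes were mostly lower, 10 of 14 with 1 higher. SLC3A2 (562, 621 and 514 CPM with control and 355, 332 and 340.0 CPM with mtAsn-2, -0.73 ± 0.049) and SLC7A5 (-0.61 ± 0.053), the heavy and light chain of the large neutral amino acid exchanger, fell together, and the glutamate and aspartate importer gene SLC1A3 fell by -0.95 ± 0.17. SLC36A1, which exports small amino acids from lysosomes, rose (0.61 ± 0.055).

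Genes of the machinery that the targeted tRNA serves changed by small amounts in both directions. Of 15 tested mitochondrial aminoacyl-tRNA synthetase genes, 8 were higher and 2 lower (1 without control replicate 3 or mtAsn-2 replicate 3), with FARS2 at 0.86 ± 0.097 and AARS2 at 0.58 ± 0.055 on the log2 scale and CARS2 at -0.59 ± 0.059. The cytosolic set had 6 higher and 4 lower of 19, with KARS1 not past the threshold (-0.076 ± 0.043). Of the 20 genes that cut and modify mitochondrial tRNAs, 10 were higher and 6 lower (3 without mtAsn-2 replicate 2). LRPPRC, which stabilises mitochondrial mRNAs, rose by 0.43 ± 0.045, and the queuosine enzyme genes QTRT1 (0.26 ± 0.056) and QTRT2 (0.37 ± 0.069), which modify the wobble base of the asparagine tRNA among others, rose. TRMU, which modifies the wobble uridine of the lysine tRNA among others, fell (-0.48 ± 0.055). Mitochondrial ribosomal proteins had a median of 0.030, with 21 of 75 higher. Nuclear-encoded respiratory chain subunits had 16 higher and 17 lower of 73 and a median of -0.018. The largest falls there were NDUFB1 (-0.65 ± 0.057) and NDUFB6 (-0.57 ± 0.050) of complex I, and the largest rise was NDUFA7 (0.62 ± 0.090). The mitochondrial DNA helicase gene TWNK (0.55 ± 0.058) and polymerase gene POLG (0.47 ± 0.056) rose, and TFAM did not pass (0.013 ± 0.057).

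In the TCA cycle list, PDHA1, a pyruvate dehydrogenase subunit, rose (0.57 ± 0.049) with ME2 (0.56 ± 0.080) and IDH2 (0.35 ± 0.082), while GLUD1, glutamate dehydrogenase (229, 235 and 228 CPM with control and 144, 142 and 139 CPM with mtAsn-2, -0.70 ± 0.038), and the dehydrogenase kinase gene PDK4 (-0.57 ± 0.10) fell. Of the mitochondrial chaperones, TRAP1 (0.38 ± 0.046) and HSPA9 (0.18 ± 0.041) rose, and HSPD1 (0.031 ± 0.043) and HSPE1 (0.066 ± 0.058) did not pass. Endoplasmic reticulum stress genes were mixed, HSPA5, which encodes BiP, up by 0.21 ± 0.038, and HERPUD1 (-0.69 ± 0.050) and XBP1 (-0.22 ± 0.046) lower. Cytosolic ribosomal protein genes rose by small amounts, 42 of 67 higher and 1 lower (4 without control replicate 1) at a median of 0.12. RPL27A was the exception (605, 623 and 611 CPM with control and 423, 412 and 422 CPM with mtAsn-2, -0.55 ± 0.037). These genes have many near-identical processed copies that can share reads. Of the ribosome production genes, POLR1B, a subunit of RNA polymerase I, rose the most (0.52 ± 0.056). Lysosome and autophagy genes leaned down, 20 of 37 lower and 7 higher. ULK1, the kinase that starts autophagy, fell (168, 146 and 145 CPM with control and 77.8, 79.6 and 90.4 CPM with mtAsn-2, -0.89 ± 0.057), as did the protease gene CTSD (-0.57 ± 0.052).

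Interferon-stimulated genes, which encode antiviral proteins, were higher in 17 of 32 tested cases and lower in 7. RSAD2, which encodes viperin, stood at 0.187, 0.26 and 0.107 CPM with control and 1.51, 1 and 1.28 CPM with mtAsn-2 (log2 fold change 2.67 ± 0.33 (SE), edgeR adjusted p = 9.88e-08). USP18, which restrains interferon signalling, had 1.61, 2.83 and 2.08 CPM with control and 4.38, 4.75 and 3.84 CPM with mtAsn-2 (log2 fold change 0.97 ± 0.18 (SE), edgeR adjusted p = 4.61e-05), and OAS3, a sensor of double-stranded RNA, 46.8, 46.5 and 46.2 CPM with control and 76.1, 86.3 and 77.2 CPM with mtAsn-2 (0.78 ± 0.050). Other members went the opposite way: ISG15 (172, 196 and 159 CPM with control and 127, 123 and 122 CPM with mtAsn-2, -0.51 ± 0.055), MX2 (-0.86 ± 0.21) and IFITM1 (-0.86 ± 0.092) fell, and IFIT1 did not pass (0.004 ± 0.074). Among RNA sensors, TLR3 (0.77 ± 0.073), DDX58 (0.51 ± 0.056), which encodes RIG-I, and DHX58 (0.48 ± 0.070) rose and IFIH1, which encodes MDA5, fell (-0.68 ± 0.077). EIF2AK2, the double-stranded RNA kinase PKR, fell as well (-0.64 ± 0.049). The interferon genes in the list had too few reads to test.

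Mitosis genes rose modestly, 17 of 28 higher with a median of 0.15, for example MAD2L1 (0.34 ± 0.051) and CENPA (0.36 ± 0.063). Replication genes did not move as a group, with 5 higher and 5 lower of 29. POLA1 (-0.70 ± 0.057), of the primase complex, and RFC3 (-0.66 ± 0.057), of the clamp loader, were lower. Of the G1 regulators, the cyclin genes CCND1 (1132, 1110.3 and 1027 CPM with control and 619.7, 607 and 620.2 CPM with mtAsn-2, log2 fold change -0.82 ± 0.045 (SE), edgeR adjusted p = 1.01e-14) and CCND2 (-0.77 ± 0.14) and the inhibitor gene CDKN1B, which encodes p27 (-0.76 ± 0.053), fell.

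Cell surface and matrix genes changed in both directions. ITGB6, the beta subunit of an integrin that activates TGF-beta, was higher (0.261, 0.13 and 0 CPM with control and 0.578, 0.75 and 0.67 CPM with mtAsn-2, log2 fold change 2.17 ± 0.42 (SE), edgeR adjusted p = 8.39e-05), and ITGA2 (0.52 ± 0.044) and ITGB1 (0.43 ± 0.038) rose too. Of 16 collagen genes, 8 were higher, among them COL4A5 (0.87 ± 0.083) and COL6A3 (1.13 ± 0.14), and 3 were lower, COL5A1 by -0.78 ± 0.043. ADAMTS1, a secreted metalloprotease gene, rose (0.95 ± 0.083), and the inhibitor genes TIMP1 (-0.52 ± 0.041) and TIMP2 (-0.72 ± 0.040) fell. In the TGF-beta list, BMP4 (-0.75 ± 0.075) and TGFB2 (-0.54 ± 0.062) were lower along with INHBB. Keratin genes fell, KRT8 from 875, 909 and 847 CPM to 399, 392 and 422 CPM (log2 fold change -1.12 ± 0.038 (SE), edgeR adjusted p = 5.43e-19), KRT81 by -0.90 ± 0.049 and KRT18 by -0.55 ± 0.039, and keratin genes have processed copies that can share reads. EPCAM rose from a low level (4.74, 4.16 and 4.28 CPM with control and 5.73, 5.75 and 6.21 CPM with mtAsn-2). S100 genes fell in 9 of 12 cases, S100A4 by -0.47 ± 0.047, and S100A2 rose (103, 106 and 118 CPM with control and 166, 181 and 191 CPM with mtAsn-2, 0.72 ± 0.058). YAP1 (-0.53 ± 0.038) and TEAD1 (-0.56 ± 0.038), partners of the Hippo pathway, fell, while the target gene CCN2 did not pass (0.034 ± 0.053).

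Genes that process small RNAs showed no common direction. DICER1, which cuts microRNA precursors, fell (-0.35 ± 0.047), and AGO1 (0.42 ± 0.054), XPO5 (0.43 ± 0.045) and ZC3H12A (0.73 ± 0.071), a ribonuclease gene known to limit cytokine mRNAs, rose. RNASEH1, which cuts RNA in hybrids with DNA, did not pass (0.075 ± 0.051). Among histone demethylases KDM7A stood out, from 11.2, 10.01 and 8.82 CPM to 2.39, 3.34 and 3.77 CPM (log2 fold change -1.67 ± 0.15 (SE), edgeR adjusted p = 2.15e-09).

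To see how far these changes were shared with the other LNAs, mtAsn-2 was tested directly against mtAsn-1 and mtLys in the same fit. Against mtAsn-1, 3516 genes (21.9%) rose with mtAsn-2 and 3949 (24.6%) fell. Against mtLys, 3682 (22.9%) rose and 4125 (25.7%) fell. All 4 neutrophil chemokines and all 5 NF-kB subunits were higher with mtAsn-2 in both direct tests. Against control, all 4 chemokines were also higher with mtAsn-1 (median log2 fold change 1.19), and 2 were higher with mtLys (median 0.47). Of the 5 NF-kB subunits, 0 were higher than control with mtAsn-1 or mtLys, 3 were lower with mtAsn-1 and 1 was lower with mtLys. For CSF3 the mtAsn-1 libraries had 5.72, 6.92 and 9.45 CPM, the mtLys libraries 4.72, 5.16 and 5.96 CPM and the mtAsn-2 libraries 20.8, 19.8 and 16.9 CPM, and the direct log2 differences were 1.35 ± 0.13 and 1.87 ± 0.13. AREG stood at 55.6, 73.6 and 56.6 CPM with mtAsn-1 and 75.2, 62.4 and 74.7 CPM with mtLys, below all mtAsn-2 libraries (1.47 ± 0.098 and 1.26 ± 0.094). BIRC3 stood at 53.9, 57.8 and 50.3 CPM and 51.98, 65.2 and 56.7 CPM, close to the control libraries, with direct differences of 1.25 ± 0.076 and 1.14 ± 0.073. The log2 fold change of NFKB2 against control was -0.12 ± 0.047 with mtAsn-1, 0.015 ± 0.046 with mtLys and 0.95 ± 0.046 with mtAsn-2. These 3 comparisons share the control libraries. IL1B did not differ from mtAsn-1 beyond the threshold (-0.18 ± 0.17, edgeR adjusted p = 0.415) and was higher than with mtLys (0.45 ± 0.17). FGFR4, a fibroblast growth factor receptor gene, was higher than in every other group, with 5.08, 4.35 and 4.22 CPM in the control libraries and 12.7, 12.8 and 11.4 CPM in the mtAsn-2 libraries and direct differences of 1.09 ± 0.12 and 1.10 ± 0.11.

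The lists differed between the LNAs as well. Of 32 tested interferon-stimulated genes, 28 were higher with mtAsn-2 than with mtAsn-1 and 1 lower, and 19 were higher and 2 lower than with mtLys. ISG15, lower than control with all 3 LNAs, stood at 78.1, 84.8 and 85.6 CPM with mtAsn-1 and 104, 105 and 111 CPM with mtLys, below its mtAsn-2 level of 127, 123 and 122 CPM. Of 40 glucose genes, 28 were lower with mtAsn-2 than with mtAsn-1 and 28 lower than with mtLys. PKM, for example, had 4320.3, 4104 and 4419 CPM with mtAsn-1 and 4304, 4364 and 4419.6 CPM with mtLys. The 8 genes that carry out or restrain glucose uptake were less distinct, with 3 lower in each direct test. Against control 5 of these 8 were lower with mtAsn-1, 5 with mtLys and 6 with mtAsn-2. In the direct tests NRF2 members were lower with mtAsn-2 in 23 and 22 of 47 cases. NQO1 stood at 253, 235 and 266 CPM with mtAsn-1 and 204, 211 and 224 CPM with mtLys. Most sterol synthesis genes were lower than control with every LNA. Of 20 tested, 15 were lower with mtAsn-1, 13 with mtLys and 16 with mtAsn-2, at medians of -0.317, -0.273 and -0.310. In the direct tests 6 were higher and 9 lower with mtAsn-2 than with mtAsn-1, at a median of -0.053. Against mtLys 3 were higher and 11 lower, at a median of -0.149. Collagens were lower with mtAsn-2 in 11 and 13 of 16 cases, COL4A5 having 20.3, 21.5 and 19.3 CPM and 23.97, 23.9 and 23.4 CPM with the other LNAs against 11.7, 12.5 and 12.8 CPM with mtAsn-2. Cytosolic ribosomal proteins were higher with mtAsn-2 than with mtLys in 59 of 67 cases, at a median log2 difference of 0.19.

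Among the falls, PPIC, HPSE, OFD1, PTPRF, GAS6, PCMTD1 and LHX6 were among the 8 largest that passed in all 3 tests. PPIC had 30.4, 28.8 and 27.9 CPM with mtAsn-1 and 29.8, 29.1 and 28.8 CPM with mtLys, near its control level, and HPSE 26.01, 27.3 and 25.98 CPM and 24.1, 25.2 and 24.6 CPM. GAS6 had 446, 451 and 430.0 CPM and 464, 493 and 487 CPM, against 134, 134 and 142 CPM with mtAsn-2 (direct -1.70 ± 0.042 and -1.82 ± 0.042). PTPRF moved in opposite directions: it was higher than control with mtAsn-1 (451, 502 and 432 CPM, 0.64 ± 0.053) and mtLys (442, 452 and 417 CPM, 0.56 ± 0.052) and lower with mtAsn-2, and the direct differences were -2.37 ± 0.056 (edgeR adjusted p = 1.87e-19) and -2.30 ± 0.056 (2.67e-19). LHX6, a homeobox transcription factor gene, had 7.95, 6.63 and 6.09 CPM in the control libraries and 1.71, 1.87 and 1.77 CPM in the mtAsn-2 libraries, with direct differences of -1.61 ± 0.15 and -1.63 ± 0.14. BMF was lower than in the other groups too, from 9.90, 9.20 and 6.75 CPM with mtAsn-1 and 9.25, 10.8 and 10.2 CPM with mtLys (direct -0.90 ± 0.13 and -1.15 ± 0.12). S100P went the other way against mtAsn-1, where it stood at 2.22, 1.71 and 1.76 CPM (direct 1.26 ± 0.16). Genes that mtAsn-1 and mtLys lowered further than mtAsn-2 included ATF3 (direct 1.38 ± 0.14 and 1.63 ± 0.13), NUPR1 (0.80 ± 0.12 and 1.57 ± 0.12) and PHGDH (0.79 ± 0.079 and 1.15 ± 0.077).

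**Figure D4:**
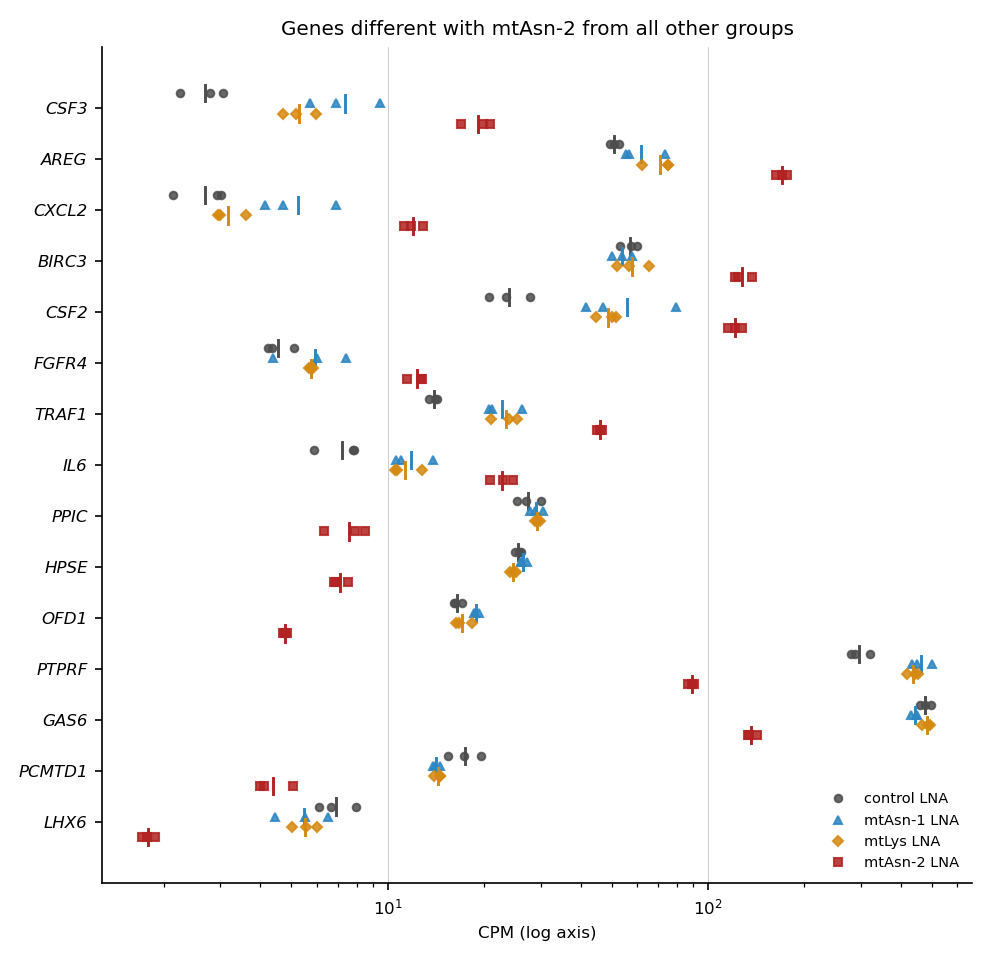
CPM on a log axis of genes named from the 8 most above and the 8 most below all other groups with mtAsn-2, in all 12 libraries. Each symbol is 1 library and each short line a mean of 3. The genes were picked for this difference, and for PPIC and HPSE the other 3 groups lie close together.

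As a description, spliced transcripts were searched for stretches identical to part of MT-TN. A run of at least 13 identical bases was found in transcripts of 0.498% of 14252 tested genes with a transcript in GENCODE v29, in 0.703% of 3984 lower genes, in 0.495% of 404 genes lower by at least 2-fold and in 0.446% of 3591 higher genes. For runs of at least 12 the shares were 1.81%, 2.41%, 1.49% and 1.78%. The longest transcript had a median of 3454 bases over all these genes, 3921 over the lower genes and 3590.0 over the higher genes, and the part of length in these shares was not tested. HPSE was among the genes with a run of 13, and PTPRF, GAS6 and BMF were not. Runs of at least 14 were found in 11 genes, of which 3 were lower, 3 higher and 5 not past the threshold. Of the genes lower by at least 2-fold, 0 had such a run. The longest run, 16 bases, lay in a gene that did not pass. Introns were not searched.

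Long genes differed between mtAsn-2 and the other LNAs. Of 496 tested genes with a genomic span of 300 kb or over, 20.8% rose and 29.6% fell with mtAsn-2 against control, at a median log2 fold change of -0.083. The same genes were higher than control in 65.9% of cases with mtAsn-1 and 70.6% with mtLys (all genes, 24.3% and 24.6%), and lower in 3.43% and 3.02% (all genes, 24.2% and 23.9%). In the direct tests 69.0% of these genes were lower with mtAsn-2 than with mtAsn-1, against 24.6% of all genes, and 71.0% were lower than with mtLys, against 25.7%. Genes under 10.0 kb did not show this pattern, with 13.9% lower with mtAsn-2 than with mtAsn-1. The median control level was 8.46 CPM for the genes of 300 kb and over and 3.01 CPM for those under 10.0 kb, and the part of level in this pattern was not tested.

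**Figure D5:**
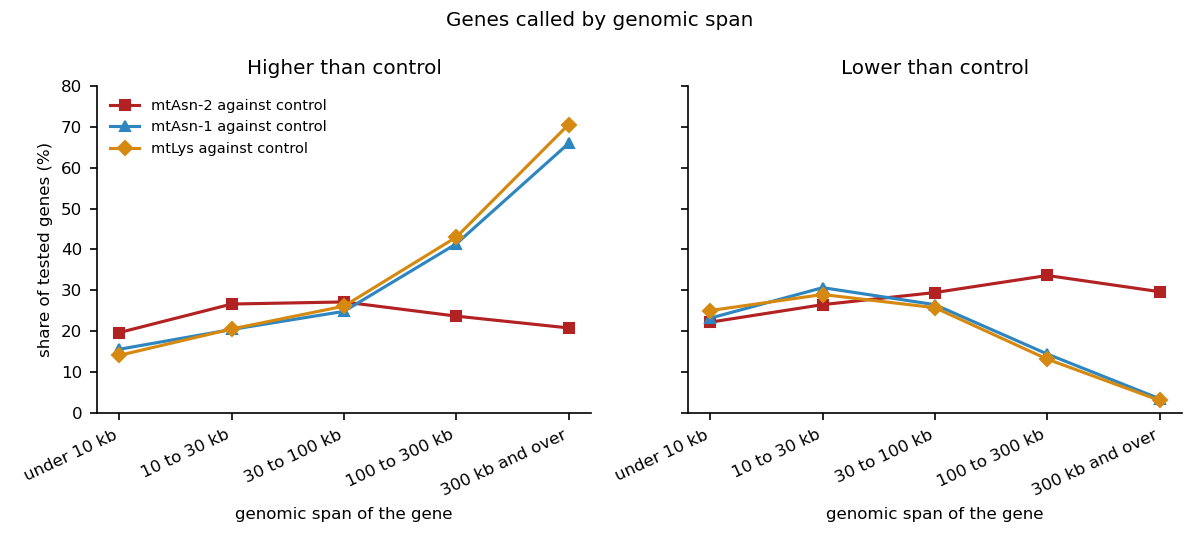
Share of tested genes called higher (left) and lower (right) than control, in percent, by genomic span in 5 bins, for each of the 3 LNAs. For genes of 300 kb and over 20.8% are higher with mtAsn-2, 65.9% with mtAsn-1 and 70.6% with mtLys. The 3 LNAs share the control libraries.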

How the data were processed

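Libraries were made with the TruSeq v2 RNA kit from total RNA of MDA-MB-231 cells given 1 of 4 LNAs, 3 libraries each, per the labels' protocols. The authors deposited raw read counts per gene, 1 column per library, with no normalization. FastQC, STAR 2.6.0a, featureCounts, DESeq2 and the build hg38 are listed in the submitters' processing notes, without the role of each, and strand handling is not given in the sources used here. Of 52897 lines, 52859 genes were used, and 38 broken lines of 12 genes, at most 0.141% of a library, were left out. Genes with copies on alternate sequences of the build were kept as listed.

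The deposited counts were tested with edgeR 4.0.16 (R 4.3.3). Low genes were dropped with filterByExpr, set to a minimum count of 10 and a minimum total of 15 and given the groups. A robust quasi-likelihood model with TMM factors was fitted to all 12 libraries, which share 1 estimate of the spread (common biological coefficient of variation 0.0421). The threshold was 0.05 on Benjamini-Hochberg adjusted p, taken separately for every comparison. Dividing the size of a log2 fold change by the root of F gave its SE. Log2 CPM used a prior count of 2. Copied libraries were checked for and not found (chi-square per gene at least 2.33). On simulated data of 15815 genes for mtAsn-2 against control, the test recovered 74% of the 1.25-fold changes, 88% at 1.5-fold and 100.0% at 2-fold and 4-fold, with 11 of 192 calls false. The simulation changed only a small share of genes, left genes of low level unchanged and took the spread from the same fit. Its rates may therefore not hold for the real comparison, where 24.1% of genes were called higher and 27% lower.

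Named genes were the 15 largest rises and falls among called protein-coding genes whose mean log2 CPM reached 2 and whose libraries did not overlap between groups, the targets, up to 3 rises and 3 falls per role of each list, members not past the threshold where a family is described, and the 8 largest rises and falls that passed the same way against all 3 other groups. Further members were named after their values were seen, and some genes that meet the rule are not reported here. The members, lists and motifs were chosen with earlier results of these data known. Symbols matched the RefSeq table for 42646 genes and older symbols for 803. The alternatives tried were DESeq2 1.42.0, RLE factors, no filter on low counts, a stricter filter (every library of some group at 1 CPM or more, mean log2 CPM 2 or more), the replicate number as a block, a fit of only the compared groups, thinning to the smallest total, and leaving out each library. Tables used pandas 2.3.3, scipy 1.17.1 and numpy 2.4.6 under Python 3.11.15, and figures matplotlib 3.10.9.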

Additional observations from a re-analysis of the deposited data

Results flagged for a closer look

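Effects of the LNAs against the shared control differed by direct test for many genes: against mtAsn-1, 3516 rose with mtAsn-2 and 3949 fell, and against mtLys 3682 rose and 4125 fell. Among the 15 largest rises and falls, PTPRF was called in opposite directions against control, with a direct log2 difference of -2.37 from mtAsn-1 and -2.30 from mtLys. OFD1 was higher than control with mtAsn-1 and lower with mtAsn-2 (direct difference -1.98). Of genes spanning 300 kb and over, 69.0% were lower with mtAsn-2 than with mtAsn-1 and 71.0% lower than with mtLys. Groups of 3 libraries were too small for the outlier check.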

How the results depend on the processing

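The counts of genes higher and lower than control stayed within 1.5 times of the reported 3862 and 4337 under every alternative run. They were 3976 and 4229 with RLE factors, 3489 and 3808 with DESeq2, 4268 and 3955 with no filter, 3201 and 3481 with the stricter filter, 4072 and 4052 in the compared groups alone, 3526 and 3838 after thinning, and 3469 to 3723 and 3869 to 4126 with 1 library left out. The stricter filter, which tests 10884 genes, left 77 genes at least 2-fold higher and 146 lower than control, 50 and 136 against mtAsn-1, and 37 and 164 against mtLys, where the usual filter gave 408 and 555, 340.0 and 347, and 277 and 442. With the replicate number as a block the counts were 3727 and 4217. The labels do not say that a number marks a shared culture or day, and same-numbered control and mtAsn-2 libraries deviated with correlations of -0.328, 0.041 and -0.097, so the numbers were not taken to pair the samples.

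Over the 271 genes named with a log2 fold change, 3488 refits gave the same call in 3463 cases, lost it in 24, added it in 1 and reversed it in 0. The MT-TN difference in log2 CPM was -1.31 by total counts and -1.39 by TMM-scaled sizes, with the same p. Precision for this gene is limited by 5 reads against 11.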
